A study of Mus musculus with 6 samples.

Results

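Iron handling and sequestration genes of cultured mouse chondrocytes are described here: 10 genes, chosen by name from the 55487 genes in the files. Lcn2 and Hp encode secreted scavengers, Steap4 and Steap3 metalloreductases, Tfrc and Slc11a2 importers, Fth1 and Ftl1 the ferritin chains, Slc40a1 the exporter ferroportin and Cp the ferroxidase ceruloplasmin. The cells were chondrocytes from knee cartilage of C57B/6 mice, the cells that build and maintain cartilage matrix, grown in DMEM-F12 with fetal bovine serum. All of them received extracellular vesicles, membrane particles released by other cells, for 24 h, at a vesicle protein concentration of 10 µg/ml. In the M-LPS-EV group (3 libraries) the vesicles came from macrophages stimulated with LPS, a lipid-sugar molecule of bacterial outer membranes, and in the M-EV group (3 libraries) from unstimulated macrophages. Cells without vesicles were not analysed here, so each value is a difference between vesicle types. The labels give no age, sex or genotype of the mice, and no dose of LPS. Whether the replicates were separate cultures or animals is not said, and p-values thus reflect only the spread among these libraries, which may be technical.

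Iron enters most cells as transferrin-bound ferric iron through the transferrin receptor. It is then reduced in endosomes by STEAP enzymes, moved to the cytosol by DMT1 (Slc11a2) and used, stored in ferritin or exported through ferroportin. Iron regulatory proteins tie this traffic to the cell's iron: when iron is scarce they bind hairpins in mRNAs, called iron-responsive elements, and there block translation (in a 5′UTR) or protect the mRNA from decay (in a 3′UTR). During infection and inflammation, cells also hold iron back from microbes, through lipocalin 2, haptoglobin and ferritin. The libraries measure mRNA, and neither protein nor iron was measured.

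Hairpins of this kind were searched for in the transcripts of the 10 genes, because they show which of these mRNAs carry the letters of the element. The search asked for a C, 5 stem bases, the loop CAGTGN and 5 bases able to pair with the stem, with G-T pairs allowed. The loop is in capitals below and 4 bases are shown beyond the search pattern on each side, 5′ to 3′ on the mRNA, as DNA letters from GENCODE M21 (GRCm38). Fth1-201 and Ftl1-201, the main ferritin transcripts, held 1 site each in the 5′UTR (chr19:9982734-9982758, plus strand, and chr7:45459781-45459805, minus strand), as did Slc40a1-201 (chr1:45925467-45925491, minus strand). Tfrc-201 held 4 in its 3′UTR, between chr16:32631221 and 32631736 on the plus strand. In Slc11a2 a site with 1 unpaired base in its stem lay in the 3′UTR of Slc11a2-205 (chr15:100395154-100395179, minus strand), and Slc11a2-201, which ends at another stop codon, held none.
Fth1-201: cctgcttcaaCAGTGCttgaacgga
Ftl1-201: cttgcttcaaCAGTGTttgaacgga
Slc40a1-201: acttcagctaCAGTGTtagctaagt
Tfrc-201, site 1: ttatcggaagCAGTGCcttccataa
Tfrc-201, site 2: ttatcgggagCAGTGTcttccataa
Tfrc-201, site 3: atatcggagaCAGTGAtctccatat
Tfrc-201, site 4: ttatcgggaaCAGTGTttcccataa
Slc11a2-205: ccatcagagcCAGTGTgtttctatgg
Of 66743 coding transcripts in the annotation, 0.927% held a fully paired site and 1.94% a site with 1 unpaired base. Transcripts of Lcn2, Hp, Steap4, Steap3 and Cp held neither form. A match is a description of the letters, and binding was not measured.

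Promoters are shown for 4 members. Lcn2 and Steap4 rose most among the members with a promoter in the RefSeq table. Fth1 and Ftl1, the ferritin pair, have mRNAs with like hairpins, and Fth1 rose (log2 fold change 1.72) while Ftl1 fell slightly (-0.10). RefSeq (GRCm38.p6) gave a promoter for 7 of the 10 genes. The 250 bases before each start site were searched on both strands for TTGCNNAA, a form of the site of C/EBP factors, which take part in the acute-phase response. Matches are in capitals, letters run 5′ to 3′ on the gene's strand, and bases that GENCODE places inside the main transcript were left out (58 for Lcn2 and 15 for Steap4). The windows were chr2:32387798-32387989 on the minus strand for Lcn2, chr5:7960222-7960456 on the plus strand for Steap4, chr19:9982396-9982645 on the plus strand for Fth1 and chr7:45459887-45460136 on the minus strand for Ftl1.
Lcn2: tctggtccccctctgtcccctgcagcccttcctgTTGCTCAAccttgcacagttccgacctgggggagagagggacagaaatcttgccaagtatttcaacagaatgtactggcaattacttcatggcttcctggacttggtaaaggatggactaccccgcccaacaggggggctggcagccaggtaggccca
Steap4: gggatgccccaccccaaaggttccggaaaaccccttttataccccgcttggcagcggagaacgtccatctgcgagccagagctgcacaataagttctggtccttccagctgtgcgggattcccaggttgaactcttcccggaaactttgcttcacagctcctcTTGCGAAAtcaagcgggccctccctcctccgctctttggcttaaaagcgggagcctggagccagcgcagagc
Fth1: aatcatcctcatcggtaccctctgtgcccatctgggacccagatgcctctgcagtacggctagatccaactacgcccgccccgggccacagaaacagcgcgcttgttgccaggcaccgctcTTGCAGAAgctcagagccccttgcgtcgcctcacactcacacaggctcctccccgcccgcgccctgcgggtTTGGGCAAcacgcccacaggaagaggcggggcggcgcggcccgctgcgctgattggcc
Ftl1: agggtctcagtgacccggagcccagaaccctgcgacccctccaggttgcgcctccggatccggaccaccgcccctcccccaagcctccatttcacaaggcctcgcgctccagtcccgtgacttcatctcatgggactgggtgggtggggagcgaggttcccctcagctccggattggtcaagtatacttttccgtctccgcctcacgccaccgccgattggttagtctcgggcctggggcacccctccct
The letters TTGCNNAA were present in the windows of Lcn2, Steap4 and Fth1, and in 9.57% of all 32841 promoters in the table. The other windows of the 7, those of Ftl1, Steap3, Cp and Tfrc, held none, and Steap3, Cp and Tfrc rose too. Fth1 held 2 matches, 1 of them on the other strand. GGG and CC with any 5 bases between them, a loose form of the NF-kB site, were present in 6 of the 7 and in 45.8% of all promoters. TTCNNNGAA, bound by STAT factors, was present in Steap4 among the 7 and in 7.02% of all. TGACNNNGC, the core of the antioxidant response element, was in none of the 7 and in 10.2% of all. Here too a match describes only the letters, and binding was not measured.

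Of the 10 genes, 8 rose in M-LPS-EV libraries, 1 fell and 1 did not pass the test, at an adjusted p under 0.05 in a fit across all genes with edgeR's quasi-likelihood test. The background is high: 31.6% of the 14604 tested genes were called, 16.4% as higher and 15.2% as lower. The median log2 fold change of the 10 was 0.95, beside 0.003 over all tested genes. The 10 were chosen with earlier results of these data known, so their count and median beside the background are only a description. A test against a change of 1.2-fold still called all 8 that rose and not the 1 that fell, with 7.79% of all tested genes called. All 10 genes passed the filter on low counts, and each had at least 34 counts in every library. In 9 of the 10 the groups did not overlap in CPM (counts scaled to a common library size), as in 42.2% of all tested genes. In bulk RNA, fewer cells of a type and less RNA per cell cannot be told apart. Fold changes have M-LPS-EV on top, and levels are in TPM, which is scaled by transcript length and library total and allows comparison between genes.

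**Figure D1:**
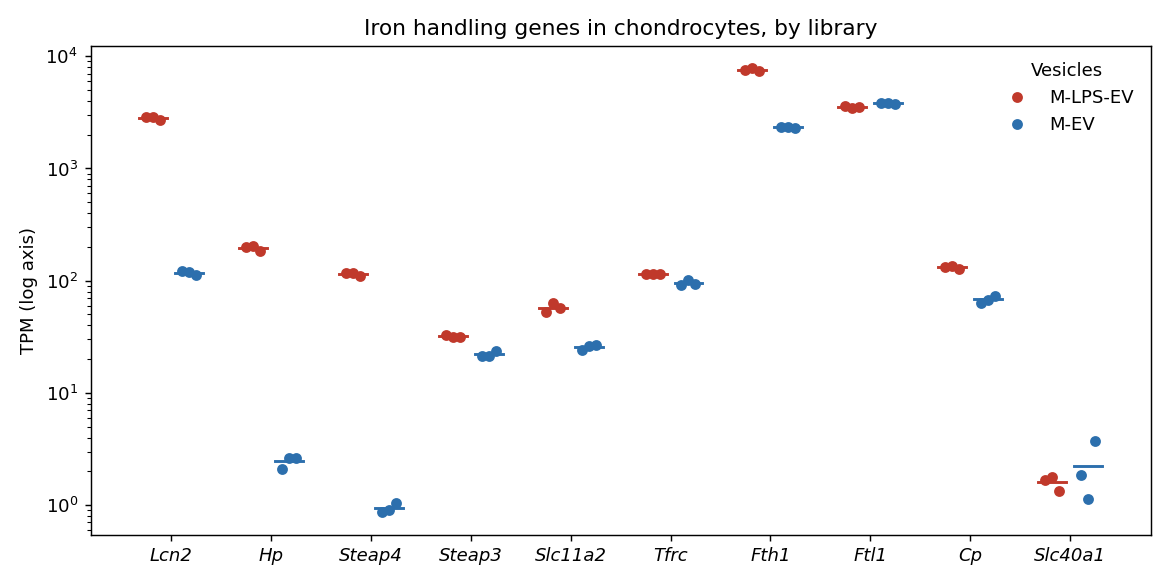
Level of each of the 10 genes in TPM on a log axis, with 1 point per library and a line at the mean of 3, M-LPS-EV in red and M-EV in blue. Lcn2, Hp and Steap4 stand furthest apart, Fth1 lies above Ftl1 in M-LPS-EV libraries and below it in M-EV libraries, and Slc40a1 alone has overlapping groups.

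The scavengers rose strongly. Lcn2 encodes lipocalin 2, which binds the siderophores that bacteria use to capture iron. It had 2876, 2901 and 2717 TPM in the M-LPS-EV libraries, against 121.9, 119.4 and 112.8 TPM in the M-EV libraries. Every M-LPS-EV library lay far above every M-EV library. The log2 fold change was 4.60 (standard error 0.03, edgeR adjusted p = 3.99e-33), place 23 from the highest of all tested genes. By mean TPM, Lcn2 held rank 37 among all genes in M-LPS-EV libraries and rank 1212 in M-EV libraries. Hp encodes haptoglobin, which binds free haemoglobin and so keeps its iron from microbes. It had 201.2, 202.0 and 182.0 TPM in M-LPS-EV libraries, against 2.10, 2.63 and 2.65 TPM in M-EV libraries, where its counts were 35, 38 and 39. The groups were widely separate, with a log2 fold change of 6.33 (standard error 0.08, edgeR adjusted p = 7.66e-28), at place 11.

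The reductases of the STEAP family, which turn ferric into ferrous iron, both rose, by very different amounts. Steap4, known as an inflammation-inducible metalloreductase, had 118.2, 116.4 and 109.1 TPM in M-LPS-EV libraries, against 0.86, 0.91 and 1.05 TPM in M-EV libraries. It was the lowest of the 10 genes in M-EV libraries and lay level with Tfrc in M-LPS-EV libraries. Its log2 fold change of 6.94 (standard error 0.07, edgeR adjusted p = 5.12e-30) was at place 9 of all tested genes and the highest of the 10, and with limma-trend on log2(TPM + 1) it was 5.90. Steap3, the endosomal ferrireductase known from red cell precursors, had 33.1, 31.8 and 31.8 TPM in M-LPS-EV libraries, against 21.4, 21.1 and 23.8 TPM in M-EV libraries. The groups did not overlap but lay close, with a log2 fold change of 0.57 (standard error 0.05, edgeR adjusted p = 3.33e-10). Thus Steap4 was below Steap3 in every M-EV library and above it in every M-LPS-EV library. The remaining family members, from the list of other iron genes, changed little: Steap2 by a log2 fold change of 0.17 (standard error 0.04) and Steap1 by -0.09 (standard error 0.03). Both were called, Steap2 as higher and Steap1 as lower (edgeR adjusted p = 5.56e-04 and 0.028).

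Both importers rose modestly. Tfrc encodes the transferrin receptor. It had 114.3, 115.1 and 113.7 TPM in M-LPS-EV libraries, against 90.8, 101.2 and 92.9 TPM in M-EV libraries, with no overlap. Of the 101.2 TPM in M-EV replicate 2, 9.09 came from Tfrc-203, at an expected count of 1. In CPM, Tfrc had 214.0, 215.0 and 217.3 in the M-EV libraries. The log2 fold change was 0.33 (standard error 0.02, edgeR adjusted p = 1.89e-11). Slc11a2 encodes DMT1, which carries ferrous iron across endosomal and apical membranes. It had 52.2, 63.1 and 56.7 TPM in M-LPS-EV libraries, against 24.3, 26.4 and 26.8 TPM in M-EV libraries, again with no overlap. Of the 63.1 TPM in M-LPS-EV replicate 2, 10.5 came from Slc11a2-204 and 6.26 from Slc11a2-207, at expected counts of 28.1 and 16.4. In CPM, Slc11a2 had 89.4, 86.6 and 85.3 in M-LPS-EV libraries, against 43.2, 44.3 and 46.8 in M-EV libraries. Its log2 fold change of 0.96 (standard error 0.04, edgeR adjusted p = 2.73e-16) stands beside 0.33 for Tfrc, and the difference was not tested.

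The mRNAs of the ferritin chains changed in opposite directions. Ferritin is a hollow shell of mixed heavy and light chains. The heavy chain, from Fth1, oxidises ferrous iron, and the light chain, from Ftl1, helps the mineral form. Fth1 had 7513, 7834 and 7412 TPM in M-LPS-EV libraries, against 2352, 2318 and 2309 TPM in M-EV libraries, a log2 fold change of 1.72 (standard error 0.02, edgeR adjusted p = 3.97e-28). It held rank 9 by mean TPM among all genes in M-LPS-EV libraries and rank 55 in M-EV libraries. Ftl1 had 3580, 3457 and 3540 TPM in M-LPS-EV libraries, against 3831, 3839 and 3767 TPM in M-EV libraries. It fell by 0.10 on the log2 scale (standard error 0.02, edgeR adjusted p = 4.38e-05), a small shift with groups that did not overlap. Against a change of 1.2-fold its adjusted p was 1.0 (edgeR glmTreat).

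The ratio of Fth1 to Ftl1 TPM was 2.10, 2.27 and 2.09 in M-LPS-EV libraries, against 0.614, 0.604 and 0.613 in M-EV libraries. The heavy chain's mRNA was thus the more abundant chain in every M-LPS-EV library and the less abundant in every M-EV library. The mean ratio was 2.15 ± 0.10 in M-LPS-EV libraries and 0.610 ± 0.006 in M-EV libraries (SD, n = 3 each), 3.53-fold apart. An exact two-sided permutation test over the libraries gave p = 0.1, the smallest that 3 against 3 allows. Fth1 made up 68.3% of ferritin TPM in M-LPS-EV libraries and 37.9% in M-EV libraries. Both chains together took 1.11% of all TPM in M-LPS-EV libraries and 0.614% in M-EV libraries, and all 10 genes took 1.46% in M-LPS-EV libraries and 0.647% in M-EV libraries.

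**Figure D2:**
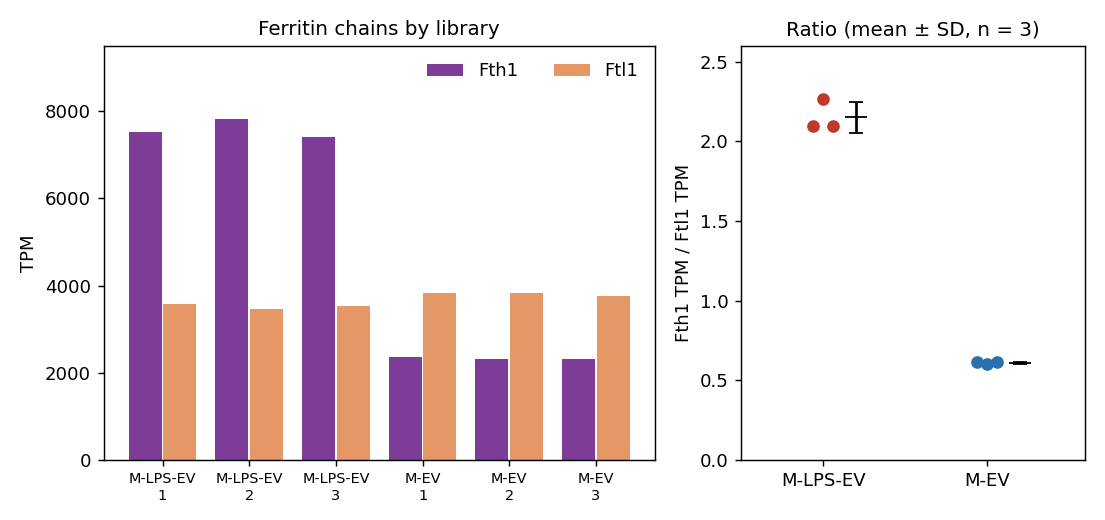
Left, TPM of Fth1 (purple bars) and Ftl1 (orange bars) in each of the 6 libraries, and right, the ratio of Fth1 to Ftl1 TPM per library (points) with mean ± SD of 3 libraries. The ratio lies between 2.09 and 2.27 in M-LPS-EV libraries and between 0.604 and 0.614 in M-EV libraries.

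Other ferritin-like genes and overlapping genes could take or lend reads. Of 14 other genes whose symbols begin with Fth or Ftl, pseudogenes among them, 12 were at 0 counts in every library. Ferritin copies under other symbols were not looked up. Ftl1-ps1 had 714, 747 and 603 counts in M-LPS-EV libraries, against 920, 755 and 731 in M-EV libraries, which is small beside the 31834 to 36276 counts of Ftl1 in M-LPS-EV libraries and 37094 to 42568 in M-EV libraries. How RSEM shared reads between them is an estimate. The antisense gene Gm10252 at Ftl1 had 2048 counts summed over the M-LPS-EV libraries and 2386 over the M-EV libraries. Hps3, antisense to Cp, had 812 over the M-LPS-EV libraries and 825 over the M-EV libraries, and neither gene passed the test (edgeR adjusted p = 0.086 and 0.531). The kit marks strand, but the strand setting of the counting is not given in the sources used here.

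On the export side, the oxidase rose and the exporter was scarce in both groups. Cp encodes ceruloplasmin, a copper protein that oxidises exported ferrous iron so that transferrin can bind it. It had 132.8, 134.2 and 128.3 TPM in M-LPS-EV libraries, against 63.9, 67.9 and 72.5 TPM in M-EV libraries, without overlap. The log2 fold change was 0.93 (standard error 0.03, edgeR adjusted p = 3.14e-19). Slc40a1, for ferroportin, the known iron exporter of mammalian cells, had 1.69, 1.78 and 1.34 TPM in M-LPS-EV libraries, against 1.85, 1.13 and 3.74 TPM in M-EV libraries. Its counts were 43, 46 and 50 in M-LPS-EV libraries, against 86, 46 and 71 in M-EV libraries, and the groups overlapped. The log2 fold change of -0.44 (standard error 0.20) did not pass the test (edgeR adjusted p = 0.10). This call rests on 1 library: without M-EV replicate 2 the log2 fold change was -0.62 and the edgeR adjusted p 0.022.

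In order of mean TPM, the genes in M-LPS-EV libraries ran Fth1, Ftl1, Lcn2, Hp, Cp, Steap4, Tfrc, Slc11a2, Steap3 and Slc40a1. Steap4 and Tfrc had overlapping values and every other neighbouring pair was separate. In M-EV libraries the order was Ftl1, Fth1, Lcn2, Tfrc, Cp, Slc11a2, Steap3, Hp, Slc40a1 and Steap4, with overlap between Hp and Slc40a1 only. That overlap rests on Slc40a1 in M-EV replicate 3, with 3.74 TPM. Of this, 2.06 TPM lay in the transcript Slc40a1-207, at an expected count of 1.89. Lcn2 was thus in the place after the ferritins in both groups. Hp and Steap4 stood below Steap3 in M-EV libraries and above it in M-LPS-EV libraries.

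At the level of transcripts the files list 69 for the 10 genes, of which 43 were tested: 20 rose, 1 fell and 22 did not pass. Over all 37245 tested transcripts 4.45% were called, 2.45% as higher. Described are 18 transcripts, those that held 10% or more of a gene's TPM in either group, of which 16 were tested, with 11 higher, 1 lower and 4 not called. Not tested were Slc40a1-205 and Slc40a1-207, with at most 1.56 and 1.89 expected counts in any library. For most members 1 transcript carried the gene. Hp-201 and Steap4-201 took all of their gene's TPM. In both groups Fth1-201 took 96.2%, and Lcn2-201, Ftl1-201 and Steap3-202 took between 95.0% and 98.3%. The 1 lower transcript was Ftl1-201, with -0.10 on the log2 scale, and its call was lost without M-EV replicate 1 or 2 or without M-LPS-EV replicate 2 or 3 (edgeR adjusted p = 0.064 to 0.083). Tfrc-201, which holds 4 hairpins, took 75.8% in M-LPS-EV and 72.8% in M-EV libraries, with a log2 fold change of 0.34 (standard error 0.03, edgeR adjusted p = 0.00229). A retained-intron form, Tfrc-204, holds the same 4 hairpins. It had the same log2 fold change of 0.34 but a wider error (standard error 0.17) and did not pass (edgeR adjusted p = 0.431).

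The Slc11a2 transcripts with and without the hairpin both rose. Slc11a2-205, with the hairpin, had 24.9, 23.5 and 22.8 TPM in M-LPS-EV libraries, against 11.6, 11.5 and 12 TPM in M-EV libraries, a log2 fold change of 1.03 (standard error 0.05, edgeR adjusted p = 1.67e-04). Slc11a2-201, without it, had 16.7, 15.6 and 16.2 TPM in M-LPS-EV libraries, against 9.0, 9.80 and 10.6 TPM in M-EV libraries, a log2 fold change of 0.74 (standard error 0.08, edgeR adjusted p = 0.00458). Neither transcript's groups overlapped, and the difference between their fold changes was not tested. With the replicate number added to the fit as a block, the call of Slc11a2-201 was lost. As a share of the TPM of Slc11a2 transcripts with a stop codon, Slc11a2-201 took 33.4%, 29.1% and 33.8% in M-LPS-EV libraries. In M-EV libraries it took 38.4%, 37.1% and 42.0%, without overlap. Slc11a2-205 took 47.1% in M-LPS-EV and 47.0% in M-EV libraries on average, and these shares were not tested. Slc11a2-204, a form annotated for nonsense-mediated decay, did not pass, with 6.93 ± 3.43 TPM in M-LPS-EV libraries and 2.83 ± 1.98 TPM in M-EV libraries (SD, n = 3 each).

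Ceruloplasmin is known in a secreted form and a membrane-anchored form that differ at the C-terminus. The files do not say which transcript encodes which, so the Cp transcripts are grouped by stop codon. Cp-202 and Cp-203 share a stop codon at chr3:19992523-19992525 and together had 78.1, 69.5 and 75.0 TPM in M-LPS-EV libraries, against 36.7, 36.1 and 36.6 TPM in M-EV libraries. Cp-201, Cp-204, Cp-205 and Cp-214 share one further downstream, at chr3:20005556-20005558, and together had 20.5, 25.3 and 23.7 TPM in M-LPS-EV libraries, against 13.9, 15.7 and 16.4 TPM in M-EV libraries. Both sums were higher in every M-LPS-EV library than in any M-EV library. The first pair took 67.8% ± 4.6 of the TPM of Cp transcripts with a stop codon in M-LPS-EV libraries and 62.0% ± 2.0 in M-EV libraries (SD, n = 3 each), shares whose groups overlapped. The group further downstream took 18.9%, 22.9% and 21.7% in M-LPS-EV libraries, against 24.3%, 26.5% and 27.2% in M-EV libraries. Those shares did not overlap, but the stop codon groups were chosen afterwards and the difference was not tested. Singly, Cp-202 had a log2 fold change of 1.00 (standard error 0.05), Cp-203 of 1.11 (standard error 0.15) and Cp-204 of 0.82 (standard error 0.08), all called. That of Cp-203 was lost without M-EV replicate 1, 2 or 3 or without M-LPS-EV replicate 1 (edgeR adjusted p = 0.063 to 0.073). With the replicate number added to the fit as a block, the calls of Cp-203 and Cp-204 were lost. Cp-201, with 0.36 (standard error 0.20), did not pass (edgeR adjusted p = 0.506).

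**Figure D3:**
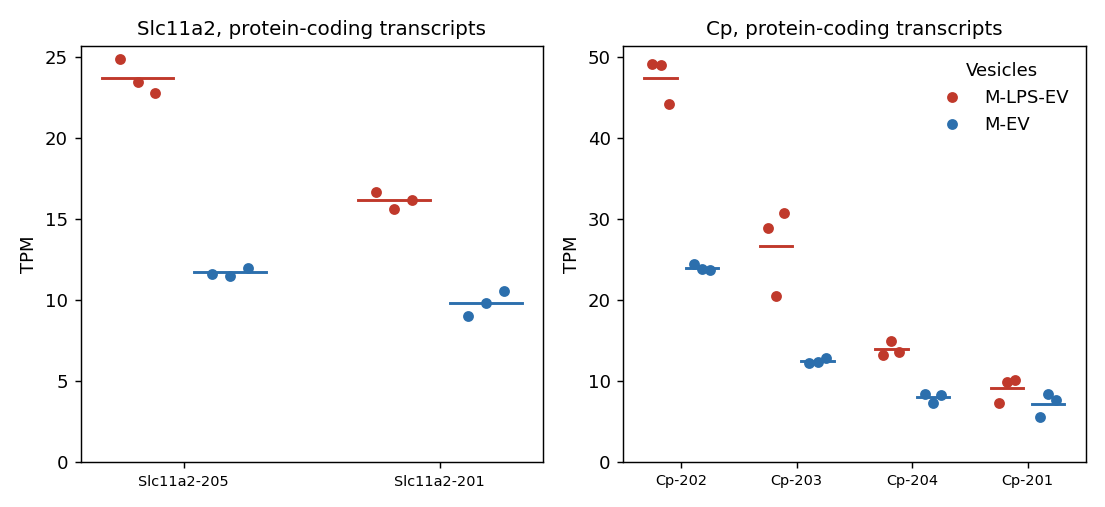
TPM per library (points) and mean of 3 (lines) for the main Slc11a2 transcripts and the described Cp transcripts, M-LPS-EV in red and M-EV in blue. Both Slc11a2 forms and Cp-202, Cp-203 and Cp-204 are separate between groups, and the Cp-201 groups overlap.

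Of 57 other iron genes listed, 46 were tested: 10 rose, 10 fell and 26 did not pass, with a median log2 fold change of 0.02 beside 0.003 over all tested genes. Of all tested genes 16.4% were called higher and 15.2% lower, the background for each list below. Without M-EV replicate 3 or without M-LPS-EV replicate 2 the number that fell was 6. With effective length offsets 6 rose and 6 fell, and with limma-trend on either TPM scale 5 rose and 5 fell. Against a change of 1.2-fold 5 rose and 2 fell, with 7.79% of all tested genes called. DESeq2 called 6 lower. Among 11 tested genes of uptake and reduction, 5 rose and 2 fell. The metal-ion transporters Slc39a8 (ZIP8) and Slc39a14 (ZIP14), which carry iron besides zinc and manganese, rose. Slc39a8 had 12.8 ± 1.3 CPM in M-LPS-EV libraries and 1.58 ± 0.63 CPM in M-EV libraries, a log2 fold change of 3.02 (standard error 0.16), or 2.09 with limma-trend on log2(TPM + 1). Slc39a14 had 493 ± 14 CPM in M-LPS-EV libraries and 300.0 ± 6.0 CPM in M-EV libraries, a log2 fold change of 0.72 (standard error 0.02). Trf, the gene of transferrin itself, rose to 20.8 ± 0.6 CPM, against 6.51 ± 0.30 CPM in M-EV libraries (log2 fold change 1.68, standard error 0.08). Cybrd1, the plasma-membrane ferric reductase of the gut, fell to 49.8 ± 0.7 CPM, against 85.4 ± 3.9 CPM in M-EV libraries (log2 fold change -0.78, standard error 0.04; SD, n = 3 each throughout). Slc22a17, a proposed receptor for lipocalin 2, was looked up after its value was seen: it had 9.68 ± 1.08 CPM in M-LPS-EV libraries and 11 ± 0.5 CPM in M-EV libraries and did not pass (edgeR adjusted p = 0.129).

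Changes were smaller among the named genes that govern and use iron, between -0.65 and 0.44 on the log2 scale. Of 5 tested genes of iron sensing and hepcidin control, 2 rose and 2 fell. Hfe, which binds the transferrin receptor, had a log2 fold change of 0.44 (standard error 0.07), and Bmp6, a signal for hepcidin, -0.41 (standard error 0.07). Fbxl5, the iron-sensing ubiquitin ligase subunit that targets iron regulatory proteins, had 0.16 (standard error 0.05) and its target Ireb2 -0.09 (standard error 0.03). The call of Ireb2 was lost in 12 of 17 other settings, each library left out among them (edgeR adjusted p = 0.053 to 0.186), that of Fbxl5 in 6 (without M-EV replicate 3 among them, edgeR adjusted p = 0.055), and that of Hfe in the 3 that scale by transcript length. Among 4 tested genes of storage, chaperones and export, Pcbp2, an iron chaperone, had 0.09 (standard error 0.02), and Ncoa4, the receptor that delivers ferritin to autophagy, -0.14 (standard error 0.04), a call lost in 4 settings. Of 17 tested heme genes 2 rose and 5 fell. Slc48a1, a heme transporter, had 0.42 (standard error 0.03), Flvcr2 -0.65 (standard error 0.07), and the heme synthesis enzymes Alad -0.31 (standard error 0.08) and Cpox -0.17 (standard error 0.04). Bmp6, Pcbp2, Alad and Cpox lost their calls against a change of 1.2-fold and in no other setting. Hmox1, the inducible heme oxygenase, chosen after its values were seen, had 278 ± 4 CPM in M-LPS-EV libraries and 279 ± 6 CPM in M-EV libraries (SD, n = 3 each), a log2 fold change of -0.004 (standard error 0.02, edgeR adjusted p = 0.916). Of 9 tested genes of iron-sulfur cluster assembly edgeR called 0, with 2 at an unadjusted p under 0.05 (Lyrm4 and Glrx5, both lower and chosen after their values were seen), and DESeq2 and limma-voom also called 0. With upper-quartile scaling those 2 were called. Hamp, the gene of hepcidin, had 1 count over the M-LPS-EV libraries and 0 over the M-EV libraries.

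**Figure D4:**
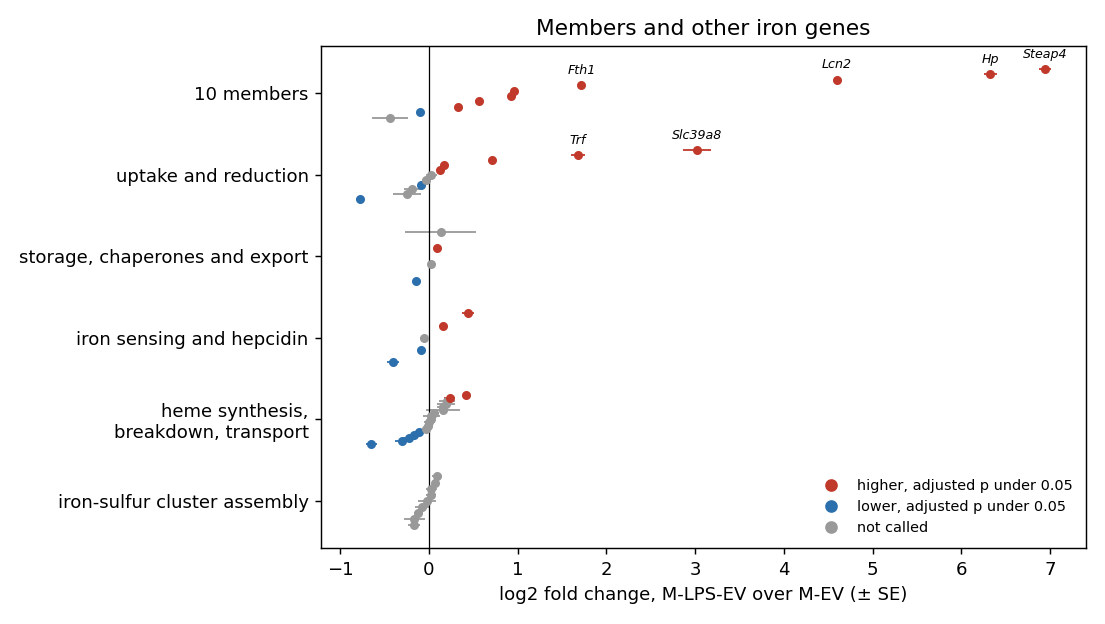
Log2 fold change ± SE, M-LPS-EV over M-EV, of the 10 genes (top) and of the 46 tested other iron genes by list, with genes called higher in red, called lower in blue and not called in grey. Besides 4 of the 10, only Slc39a8 and Trf lie above 1, and the 9 iron-sulfur genes are all grey.

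Markers of the cells themselves and of others moved as well, and their part in the results was not tested. Beside their counts stand 16.4% of all tested genes called higher and 15.2% called lower. Expected counts per library totalled 20239626 to 23539911 in M-LPS-EV libraries and 22274687 to 25712667 in M-EV libraries. Of 8 chondrocyte markers 7 fell and Sox9 did not pass, and their summed level was 107393 to 109519 CPM in M-LPS-EV libraries and 127306 to 128233 CPM in M-EV libraries. Of 10 macrophage markers 8 were tested, and 5 rose (Adgre1, Lyz2, Cd14, Itgam and Cd74). Cd68, Csf1r and Tyrobp did not pass, and Ptprc and Fcer1g were not tested. The summed level was 33.7 to 38.3 CPM in M-LPS-EV libraries and 23.4 to 25.3 CPM in M-EV libraries. Lyz2 alone averaged 22.2 CPM in M-LPS-EV libraries and 15.5 CPM in M-EV libraries. Neutrophils, a rich source of lipocalin 2, were represented by 8 markers whose sum was 0.80 to 1.37 CPM in M-LPS-EV libraries and 0.18 to 0.39 CPM in M-EV libraries, with Elane and Ly6g at 0 counts in every library. Only Camp among the 8 was tested, and it rose, with 48 counts over the M-LPS-EV libraries and 1 over the M-EV libraries. S100a8 had 5 and 8 counts in that order, S100a9 10 and 3, and Ngp 9 and 7. Mpo had 1 and 0, and Cxcr2 0 and 2. Lcn2 in the same libraries had 1171 ± 42 CPM in M-LPS-EV and 48.3 ± 1.9 CPM in M-EV (SD, n = 3 each). The 6 erythroid markers summed to 0.14 to 0.20 CPM in M-LPS-EV libraries and 0 to 0.27 CPM in M-EV libraries, with Hbb-bs and Hbb-bt at 0. Of 7 fibroblast markers 2 rose and 3 fell, with sums of 2099 to 2144 CPM in M-LPS-EV libraries and 2035 to 2054 CPM in M-EV libraries.

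The genes whose profiles lay nearest to Lcn2 and Steap4, by Euclidean distance of log2 CPM over the 6 libraries, are given as a description. For Lcn2 they were Chil1 at a distance of 1.52, Mmp13 at 3.03 and Mt2 at 3.72. The distance counts level as well as change. Their log2 fold changes were 5.29, 2.16 and 1.72 in that order, beside 4.60 for Lcn2. Chil1, a chitinase-like glycoprotein of cartilage, averaged 1040 CPM in M-LPS-EV libraries and 26.6 CPM in M-EV libraries. For Steap4 they were Hp at 1.06, Saa3, an acute-phase protein, at 1.28 and Cxcl5, a chemokine, at 1.43.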

How the data were processed

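Chondrocyte RNA was sequenced in 6 libraries made with a stranded mRNA kit, 3 M-LPS-EV and 3 M-EV, grouped by title. Per the submitters' processing notes, the authors used STAR, RSEM and DESeq2 with mm10; no source used here gives versions, strand setting or annotation. Per the file headers, the deposited tables give for each of 142699 transcripts an RSEM expected count, a TPM value and IsoPct, the transcript's percent of its gene. The authors' FPKM column, per the file headers, is scaled by transcript length too and was not used. Of the transcript identifiers 99.1% were in GENCODE M21 (GRCm38), which gave names and 1-based coordinates. RSEM's error in sharing reads between transcripts is not modelled here.

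Expected counts were summed per gene and rounded, filtered with filterByExpr (minimum count 10, minimum total 15), scaled by TMM and fitted with group as the only term (edgeR 4.0.16, glmQLFit and glmQLFTest, R 4.3.3, two-sided). Benjamini-Hochberg adjustment covered all 14604 tested genes, or all 37245 tested transcripts. TPM were summed per gene. The test was tried on simulated counts. Alternatives were other scalings (RLE, upper quartile), other count filters (none, or a mean of 50 or more), effective lengths as offsets, DESeq2 1.42.0, limma-voom and limma-trend on log2(TPM + 1) or log2(TPM + 0.1) (limma 3.58.1), glmTreat at 1.2-fold, the replicate number as a block, and each library left out.

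The members and lists were chosen with earlier results of these data known. Named were the 10 members, up to 4 called genes of each other iron list with the smallest p, and the 3 genes nearest to Lcn2 and to Steap4 (prior count 2). Other named genes are markers, overlapping or copied genes, or are said to be chosen after their values were seen. Steap1, Steap2 and Hamp are named outside these rules. The stop codon groups of Cp were also chosen afterwards. Figures were drawn with matplotlib 3.10.9.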

Additional observations from a re-analysis of the deposited data

How the results depend on the processing

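The 8 members that rose did so in all 17 alternatives, with log2 fold changes of 4.57 to 4.63 for Lcn2, 5.83 to 6.38 for Hp, 5.90 to 7.02 for Steap4 and 1.69 to 1.74 for Fth1. Scaling moved the median of all genes by less than 0.02. Against 1.2-fold 0 members were called lower (edgeR glmTreat, 0 also at an unadjusted p under 0.05), with Ftl1 at -0.10 and an adjusted p of 1.0; DESeq2 and limma-voom called 1. With 1 library left out, 1 to 2 members were called lower, and Slc40a1 ranged from -0.62 to -0.30; it was called, at -0.62, without M-EV replicate 2. The number of genes called, 4614 (2397 higher and 2217 lower), was 2867 (1539 and 1328) with effective length offsets, 2622 (1280 and 1342) with limma-trend on log2(TPM + 1), 2619 (1284 and 1335) on log2(TPM + 0.1) and 1137 (760 and 377) against 1.2-fold. With 1 library left out it was 3978 to 4317 (2100 to 2245 higher and 1878 to 2072 lower). Other iron genes called, 20 (10 higher and 10 lower), were 12 (6 and 6) with length offsets, 10 (5 and 5) on either TPM scale and 7 (5 and 2) against 1.2-fold, with 6 lower by DESeq2. With 1 library left out they were 16 to 18, with 9 to 11 higher and 6 to 9 lower, and 6 lower without M-EV replicate 3 or without M-LPS-EV replicate 2. The cause of these shifts was not tested, beyond the stricter demand of the 1.2-fold test. No result changed direction.

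Replicate numbers are shared by the titles only. Same-numbered libraries had correlations of 0.03, -0.04 and -0.02 between their deviations from the group means. With 3 libraries per group such values cannot exclude a pairing, so whether the numbers pair the libraries is not known. With the replicate number as a block 4519 genes were called (2346 higher and 2173 lower), 9 members (8 and 1), 19 other iron genes (10 and 9) and 8 described transcripts against 12. The calls of Ireb2, Ftl1-201, Cp-203, Cp-204 and Slc11a2-201 were lost. The log2 ratio of Fth1 to Ftl1 differed by 1.82 with and without the block, with a paired exact p of 0.25. Slc40a1 had 43 to 50 counts in M-LPS-EV libraries and 46 to 86 in M-EV libraries, and the part of depth in its missed call was not tested. Without M-EV replicate 1, 2 or 3, or without M-LPS-EV replicate 1, Cp-203 was not called, and Ftl1-201 was called in 2 of the 6 fits that leave out a library.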
